A study of Mus musculus with 12 samples.

Results

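The genes described here encode the enzymes that carry glucose carbon through glycolysis, the pentose phosphate pathway and the citrate cycle, together with the kinases of pyruvate dehydrogenase and the aspartate aminotransferases. A list of 46 such genes was taken, and a gene was measured where the array had a probe set annotated with its symbol alone. This held for 42 of the 46, out of 12393 genes on the array, and where a gene had several such probe sets the brightest on average was read. For 7 members (Aldoa, Tpi1, Dlat, Aco1, Mdh1, Pgd and Tkt) that probe set has the suffix x, and for 2 (Idh1 and Idh3b) the suffix s. Probe sets with these suffixes may also match other transcripts. All 42 were also among the 8253 genes that passed the filter on low signal. Gpi1, Eno1 and G6pdx had no probe set annotated with their symbol here, and Gapdh was matched only by 2 probe sets that carry several symbols.

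Striatum was taken from C57Bl/6 mice in 4 groups of 3: TIF-IA mutants made with D1R-Cre at 9 weeks, controls at 9 weeks, the same kind of mutants at 13 weeks, and controls at 13 weeks. The series was made to look at neuronal survival and death, and each mouse gave 1 Affymetrix array. The labels give no alleles for the controls, and they name medium spiny neurons as the cell type of what is otherwise described as striatal tissue. D1R-Cre acts in neurons with the D1 dopamine receptor, so other cells of the tissue keep the gene. TIF-IA, whose gene is Rrn3, is a factor that RNA polymerase I needs to start ribosomal RNA synthesis.

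Glycolysis splits glucose into pyruvate in the cytosol and yields ATP. Pyruvate is then either reduced to lactate or turned into acetyl-CoA by the mitochondrial pyruvate dehydrogenase complex, which feeds the citrate cycle, while the pentose phosphate pathway diverts glucose phosphate to make NADPH and ribose. In brain, neurons rely heavily on mitochondrial oxidation and astrocytes are known for a higher capacity for glycolysis and lactate release, and many of these enzymes exist as paired forms with different tissue distributions. Several glycolytic genes and Pdk1 are textbook targets of the hypoxia-inducible factors, which bind the core letters ACGTG or GCGTG.

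Promoters are shown for Hk2, Pfkfb3 and Pdk1, which are textbook targets of these factors and were higher in mutants, and for Pgam2, which was lower at both ages. These 4 were chosen with their values known and do not stand for the other members. Of the 13 glycolysis genes, 9 passed as lower at 13 weeks, where 21.9% of all genes did. The letters were also present in 9 of the 14 lower members. Each run is the 250 bases before an annotated start, 5′ to 3′ on the gene's strand, from RefSeq on GRCm38.p6, and capitals mark the core letters ACGTG or GCGTG on either strand (CACGT or CACGC where they lie on the other strand). Hk2 lies on the minus strand (chr6:82774455-82774704) and has 2 matches, 226 and 52 bases before the start. Pfkfb3, also on the minus strand (chr2:11553930-11554179), has 1 match 60 bases before the start, and Pdk1 on the plus strand (chr2:71872974-71873223) has 1 match 78 bases before it. Both genes have 2 annotated windows, and the one farthest upstream is shown. The Pfkfb3 gene is annotated as reaching 11554071, so its match lies inside the gene as annotated. Pgam2, on the minus strand (chr11:5803797-5804046), has none in this window.
Hk2: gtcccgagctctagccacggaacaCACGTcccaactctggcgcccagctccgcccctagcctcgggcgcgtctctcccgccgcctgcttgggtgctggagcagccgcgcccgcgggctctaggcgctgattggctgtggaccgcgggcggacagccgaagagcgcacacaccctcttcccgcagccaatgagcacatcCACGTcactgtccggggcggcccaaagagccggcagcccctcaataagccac
Pfkfb3: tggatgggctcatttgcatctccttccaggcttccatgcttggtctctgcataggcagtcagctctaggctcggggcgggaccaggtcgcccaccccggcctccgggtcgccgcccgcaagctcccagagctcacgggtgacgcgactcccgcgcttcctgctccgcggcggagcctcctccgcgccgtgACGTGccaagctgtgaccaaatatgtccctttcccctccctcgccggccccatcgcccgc
Pdk1: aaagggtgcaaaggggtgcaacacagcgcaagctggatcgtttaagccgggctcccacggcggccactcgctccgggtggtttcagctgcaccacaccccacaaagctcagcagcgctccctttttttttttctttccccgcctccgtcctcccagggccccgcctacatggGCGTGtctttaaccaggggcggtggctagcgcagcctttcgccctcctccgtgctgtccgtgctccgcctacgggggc
Pgam2: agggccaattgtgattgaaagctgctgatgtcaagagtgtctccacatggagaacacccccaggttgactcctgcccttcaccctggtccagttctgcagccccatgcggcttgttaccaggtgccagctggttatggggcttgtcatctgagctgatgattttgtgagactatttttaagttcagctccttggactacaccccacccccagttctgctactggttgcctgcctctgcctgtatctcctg

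The letters were found in 26 of the 41 members with a promoter entry (63.4%), and in 38.6% of the windows of all genes. Among members higher in the mutants at 13 weeks they were present in 6 of 8 (75.0%), among those lower in 9 of 14 (64.3%), and among those that did not pass in 11 of 19 (57.9%). A match describes these letters and is not a site of binding.

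Signals are on the log2 scale, where a difference of 1 is a doubling, and the percentile of the filter lay between 3.51 and 3.81 on the different arrays. Differences are mutant minus control with their standard error (SE) from limma, p-values were adjusted over all 8253 genes, and a gene passed at an adjusted p under 0.05. The small number of arrays limits the precision, and the spread between the 3 mice of a group may be partly technical. Rrn3 itself had 6.90, 6.96 and 6.91 in mutants at 9 weeks, against 8.0, 7.97 and 8.20 in controls, and 7.72, 7.58 and 7.18 in mutants at 13 weeks, against 7.96, 7.54 and 8.04 in controls. Whether its probe set lies in the deleted part is not known here. From Xist and Eif2s3y, all 3 mutants at 13 weeks and 1 mouse in each of the other groups were female.

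The array of 1 mouse stood apart. Control mouse 3 at 13 weeks correlated at 0.936 to 0.944 with the other controls of its age, whereas every other pair of mice within a group correlated at 0.973 or more. It lay over 0.5 from the mean of the other 2 controls for 48.9% of all genes and for 20 of the 42 members, of which 11 were higher and 9 lower, with Suclg2 furthest above (2.15) and Hk2 furthest below (-1.65). It was also the female among the controls at 13 weeks. The differences of the 42 members at 13 weeks are therefore plotted with and without this mouse. The text gives the value without it for only some genes, and the other sizes at 13 weeks include it. The spread this mouse adds enters every test because the 4 groups share 1 estimate.

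Cell type markers moved in the same mice. All 12 medium spiny neuron markers tested passed as lower at 13 weeks, with a mean level of 8.51 to 9.48 in mutants and 11.19 to 11.55 in controls, and all 12 lay above the filter percentile on at least some arrays. Of 12 pan-neuronal markers 10 passed as lower (means of 9.93 to 10.47 in mutants, against 10.99 to 11.48 in controls), while 11 of 12 astrocyte markers (11.08 to 11.32, against 9.18 to 9.46) and 11 of 11 microglia markers (11.42 to 11.77, against 8.72 to 9.09) passed as higher. Oligodendrocyte markers passed as higher in 2 of 8 and endothelial markers in 3 of 5, where Kdr and Cdh5 were under the percentile on every array. Of these 3, Vwf averaged 5.73 in mutants and 3.46 in controls and passed the filter through the mutants at 13 weeks, with 1 control array over the percentile, so its call adds little. Thalamic and pallidal markers, which would come from neighbouring tissue, were highest in mutant mouse 3 at 9 weeks (6.90) and control mouse 1 at 13 weeks (7.04), against 5.37 to 5.97 on the other arrays. At 9 weeks only 3 of 12 medium spiny neuron markers passed, all lower (means of 10.62 to 10.91 in mutants, against 11.44 to 11.50 in controls), and no marker of another list did. In bulk tissue, fewer cells of a type and less RNA per cell cannot be told apart.

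At 9 weeks 3 of the 42 members passed as lower, namely the phosphofructokinase gene Pfkl, the phosphoglycerate mutase gene Pgam2 and the aspartate aminotransferase gene Got1, and none passed as higher. Of all genes tested, 2.98% passed as lower and 2.02% as higher, 5% in all, and the members that passed took 7.14% of the members. At 13 weeks 22 of the 42 passed, 8 higher and 14 lower, where 23.4% of all genes passed as higher and 21.9% as lower, 45.4% in all. The 14 lower included 9 of the 13 glycolysis genes, and the 8 higher included Hk2, Pfkfb3, 3 isocitrate dehydrogenase and aconitase genes and 2 of the 3 pentose phosphate genes. The median difference over the members was -0.17 at 9 weeks and -0.09 at 13 weeks, against -0.02 and 0 over all genes tested.

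**Figure D1:**
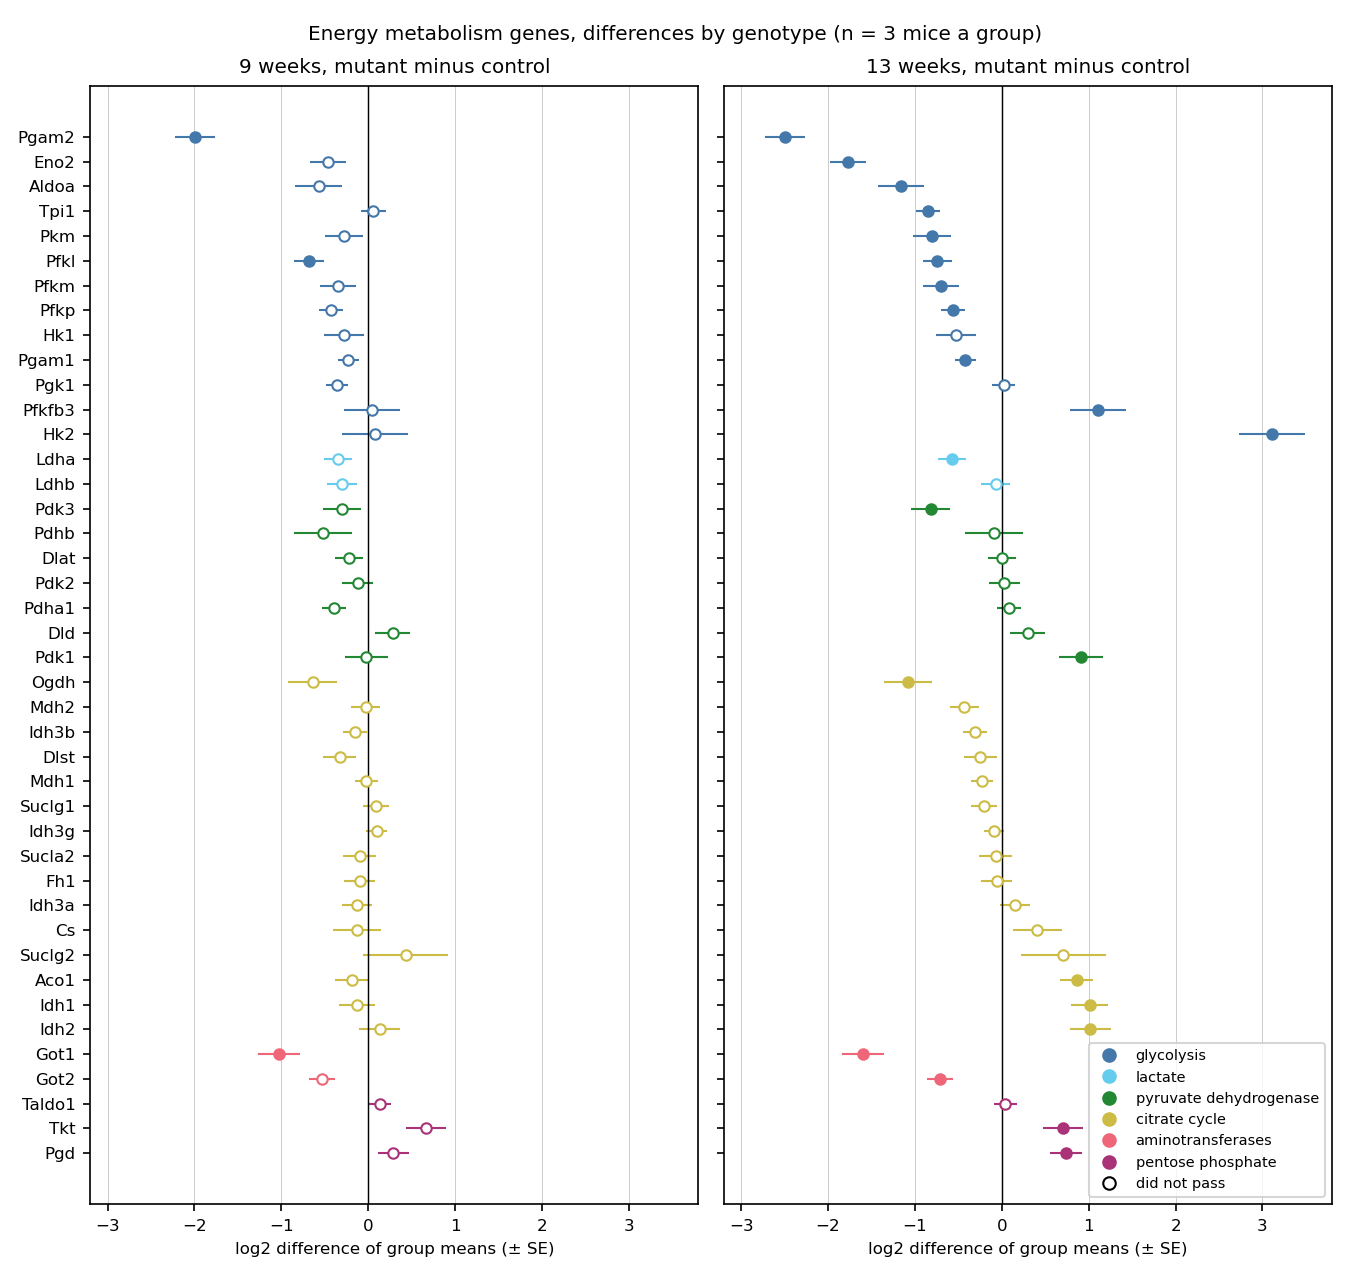
Difference between mutants and controls for the 42 measured members at 9 weeks (left) and 13 weeks (right), in log2 units on the horizontal axis with SE bars (n = 3 mice a group), grouped and coloured by pathway. Filled points passed the test: 3 at 9 weeks, all left of 0, and 22 at 13 weeks, 14 left of 0 and 8 right of it, with Hk2 at 3.11 and Pgam2 at -2.49 at the ends.

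At 9 weeks many members lay apart in every mouse, most of which did not pass. In 22 of the 42, the 3 that passed among them, all 3 mutants lay below all 3 controls, a pattern seen in 20.6% of all genes, and in 1 member, Tkt, all 3 mutants lay above, against 15% of all genes. At 13 weeks all 3 mutants lay below in 19 members, against 26.8% of all genes, and above in 8, against 27.8%. The count at 9 weeks depended on single mice. Without any 1 of 7 of the 12 mice, namely any mouse of 9 weeks or mutant mouse 1 at 13 weeks, 1 member passed, Pgam2. When control mouse 3 at 13 weeks was left out, 10 members passed at 9 weeks, 1 higher and 9 lower, and 16.5% of all genes did (6.39% higher and 10.1% lower). The added ones were Tkt (higher) and Pfkp, Aldoa, Pgk1, Pdhb, Ogdh and Got2 (lower).

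Hexokinases commit glucose to the cell by phosphorylation. Hk2, the inducible form best known from muscle and fat, had 3.17, 3.46 and 3.44 in mutants at 9 weeks, against 2.93, 3.44 and 3.45 in controls, and 6.86, 6.38 and 6.40 in mutants at 13 weeks, against 3.83, 4.14 and 2.33 in controls. The 3 mutants at 13 weeks stood well above all other mice, while the groups at 9 weeks overlapped and no array of either was over the filter percentile. Hk2 was higher in the mutants at 13 weeks by 3.11 ± 0.38 (SE, n = 3), or 8.65-fold, with an adjusted p of 4.7e-05, and by 2.56 without control mouse 3. Outside the mutants at 13 weeks, only 2 arrays were over the percentile, both controls of that age, and the filter asked for 3. Hk2 thus entered the test only through the group where it was high, so its call adds little. Because 1 of the 3 controls lay under the percentile, the size of this rise is also uncertain.

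Hk1, the form that binds mitochondria and predominates in brain, had 9.24, 9.47 and 9.31 in mutants at 9 weeks, against 9.54, 9.68 and 9.65 in controls, and 9.21, 9.07 and 9.30 in mutants at 13 weeks, against 9.49, 9.33 and 10.35 in controls. The mutants lay below the controls at both ages, and neither difference passed. It was -0.28 ± 0.23 at 9 weeks, and -0.53 ± 0.23 with an adjusted p of 0.0754 at 13 weeks. The latter became -0.22 without control mouse 3 (adjusted p = 0.189). Within each array, the Hk2 minus Hk1 difference averaged -2.65 ± 0.28 in mutants at 13 weeks and -6.29 ± 1.52 in controls (SD, n = 3). The difference of 3.64 gave an exact permutation p of 0.1, the smallest that 3 against 3 mice can reach. At 9 weeks a difference of 0.37 gave the same exact permutation p of 0.1, with Hk2 over the filter percentile on no array. Because Hk2 entered only through the mutants at 13 weeks, the pair test at that age adds little.

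Phosphofructokinase is the main regulated step of glycolysis, and all 3 of its subunit genes were lower at 13 weeks. Pfkl, the liver-type subunit, had 8.95, 9.15 and 9.29 in mutants at 9 weeks, against 9.75, 9.90 and 9.79 in controls, and 8.5, 8.64 and 9.0 in mutants at 13 weeks, against 9.28, 9.39 and 9.68 in controls. No mutant reached the level of any control of its age. It fell by 0.68 ± 0.17 at 9 weeks, adjusted p = 0.0448, and by 0.74 ± 0.17 at 13 weeks, adjusted p = 0.00437. The result at 9 weeks sits at the threshold: it passed in 3 of the 12 fits that each left out 1 mouse, with an adjusted p of up to 0.135 in the others.

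The muscle-type subunit gene Pfkm had 10.67, 10.81 and 10.94 in mutants at 9 weeks, against 11.14, 11.15 and 11.17 in controls, and 10.43, 10.45 and 10.80 in mutants at 13 weeks, against 10.97, 11.02 and 11.79 in controls. The platelet-type subunit gene Pfkp had 10.32, 10.33 and 10.16 in mutants at 9 weeks, against 10.72, 10.65 and 10.72 in controls, and 9.81, 9.85 and 10.15 in mutants at 13 weeks, against 10.50, 10.41 and 10.59 in controls. Mutants lay below controls for both genes at both ages, and control mouse 3 was the highest at 13 weeks. The differences at 9 weeks, -0.35 for Pfkm and -0.43 for Pfkp, did not pass. At 13 weeks Pfkm fell by 0.70 ± 0.21 (adjusted p = 0.0175) and Pfkp by 0.56 ± 0.14 (adjusted p = 0.00583). These differences were -0.43 and -0.52 without control mouse 3 (adjusted p = 0.0262 and 0.00796). Pfkm missed the test without mutant mouse 1 (-0.64, adjusted p = 0.0661) or mutant mouse 2 (-0.65, adjusted p = 0.0635). At 13 weeks the within-array differences Pfkl minus Pfkm and Pfkp minus Pfkm changed by -0.04 and 0.14 (exact permutation p = 1 and 0.9), with SDs of 0.26 and 0.39 among the controls, which does not show that the subunits moved alike. At 9 weeks Pfkl minus Pfkm averaged -1.68 ± 0.04 in mutants and -1.34 ± 0.08 in controls (SD, n = 3), a difference of -0.34 with an exact permutation p of 0.1.

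Pfkfb3 makes the sugar phosphate that activates phosphofructokinase, and it moved the other way. It had 7.39, 6.5 and 6.26 in mutants at 9 weeks, against 6.94, 6.10 and 6.99 in controls, and 8.43, 8.11 and 7.64 in mutants at 13 weeks, against 6.97, 6.75 and 7.12 in controls. The groups overlapped at 9 weeks and were separate at 13 weeks, where the difference was 1.11 ± 0.32, adjusted p = 0.0146. This call was lost without mutant mouse 1 (0.93, adjusted p = 0.0668) and in a fit with a term for sex (0.73, adjusted p = 0.0735). A second probe set of the gene differed by 0.79 at 13 weeks and did not pass (adjusted p = 0.0688 over all probe sets). It differed by 0.49 at 9 weeks.

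Of the 7 members that act from aldolase to pyruvate kinase, 6 passed as lower at 13 weeks, where 21.9% of all genes did. Aldoa, the main aldolase gene, had 12.81, 12.83 and 12.99 in mutants at 9 weeks, against 13.42, 13.48 and 13.44 in controls, and 12.65, 12.56 and 12.94 in mutants at 13 weeks, against 13.56, 13.40 and 14.68 in controls. The mutants lay below all controls at both ages, and control mouse 3 lay 1.20 above the mean of the other 2 controls. The difference of -1.16 ± 0.27 at 13 weeks (adjusted p = 0.00449) became -0.76 without that mouse, with an adjusted p of 0.00103.

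Tpi1, which interconverts the triose phosphates, had 12.12, 12.14 and 12.03 in mutants at 9 weeks, against 12.02, 12.05 and 12.04 in controls, and 11.70, 11.84 and 11.96 in mutants at 13 weeks, against 12.57, 12.56 and 12.92 in controls. The groups overlapped at 9 weeks (0.06 ± 0.14). Tpi1 was lower in mutants by 0.85 ± 0.14 at 13 weeks, adjusted p = 0.000484. Its difference there was -0.73 without control mouse 3. Control values at 13 weeks lay above those at 9 weeks in every mouse, by 0.65 ± 0.14 on average with an adjusted p of 0.103. Mutants changed by -0.26 ± 0.14 between these ages (adjusted p = 0.181). The other probe sets of Tpi1 differed by -0.08 and -0.33 at 9 weeks and by -1.04 and -0.69 at 13 weeks. Pgk1, the X-linked phosphoglycerate kinase gene, lay below every control at 9 weeks (-0.36 ± 0.13, adjusted p = 0.132) and overlapped at 13 weeks (0.02 ± 0.13).

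Phosphoglycerate mutase has a widely expressed form, Pgam1, and a muscle form, Pgam2. Pgam2 had 3.88, 3.71 and 4.56 in mutants at 9 weeks, against 5.85, 6.05 and 6.22 in controls, and 3.23, 3.31 and 3.75 in mutants at 13 weeks, against 5.79, 6.07 and 5.91 in controls. Every mutant lay more than 1 unit below every control, and the difference was the largest of the 42 members at 9 weeks. The fall was 1.99 ± 0.23 at 9 weeks (3.97-fold lower, adjusted p = 0.00205) and 2.49 ± 0.23 at 13 weeks (5.63-fold lower, adjusted p = 4.75e-06), and it passed in all 12 fits that left out 1 mouse at each age. At 13 weeks 1 of the 3 mutants was over the filter percentile, so the size of this fall is uncertain.

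Pgam1 moved much less, with 11.78, 11.75 and 11.70 in mutants at 9 weeks, against 12.08, 11.91 and 11.94 in controls, and 11.70, 11.79 and 11.62 in mutants at 13 weeks, against 12.16, 12.05 and 12.15 in controls. The groups were separate at both ages, and the fall of 0.42 ± 0.12 at 13 weeks passed with an adjusted p of 0.0168. Pgam1 minus Pgam2 within an array was larger in mutants by 1.76 at 9 weeks and 2.08 at 13 weeks, each with an exact permutation p of 0.1.

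Eno2, the neuronal enolase gene, had 12.18, 12.19 and 11.77 in mutants at 9 weeks, against 12.54, 12.32 and 12.66 in controls, and 10.57, 10.59 and 11.01 in mutants at 13 weeks, against 12.38, 12.20 and 12.91 in controls. The groups were separate at both ages, and the difference of -0.46 ± 0.21 at 9 weeks did not pass, while that of -1.77 ± 0.21 at 13 weeks did (3.42-fold lower, adjusted p = 4.56e-05). The pyruvate kinase gene Pkm fell by 0.80 ± 0.22 at 13 weeks (adjusted p = 0.0102). Its difference without control mouse 3 was -0.53 (adjusted p = 0.0128), and that of Eno2 was -1.57. Beside these falls stand the lower pan-neuronal and medium spiny neuron markers of the same mice, given above, and their part in the falls was not tested.

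**Figure D2:**
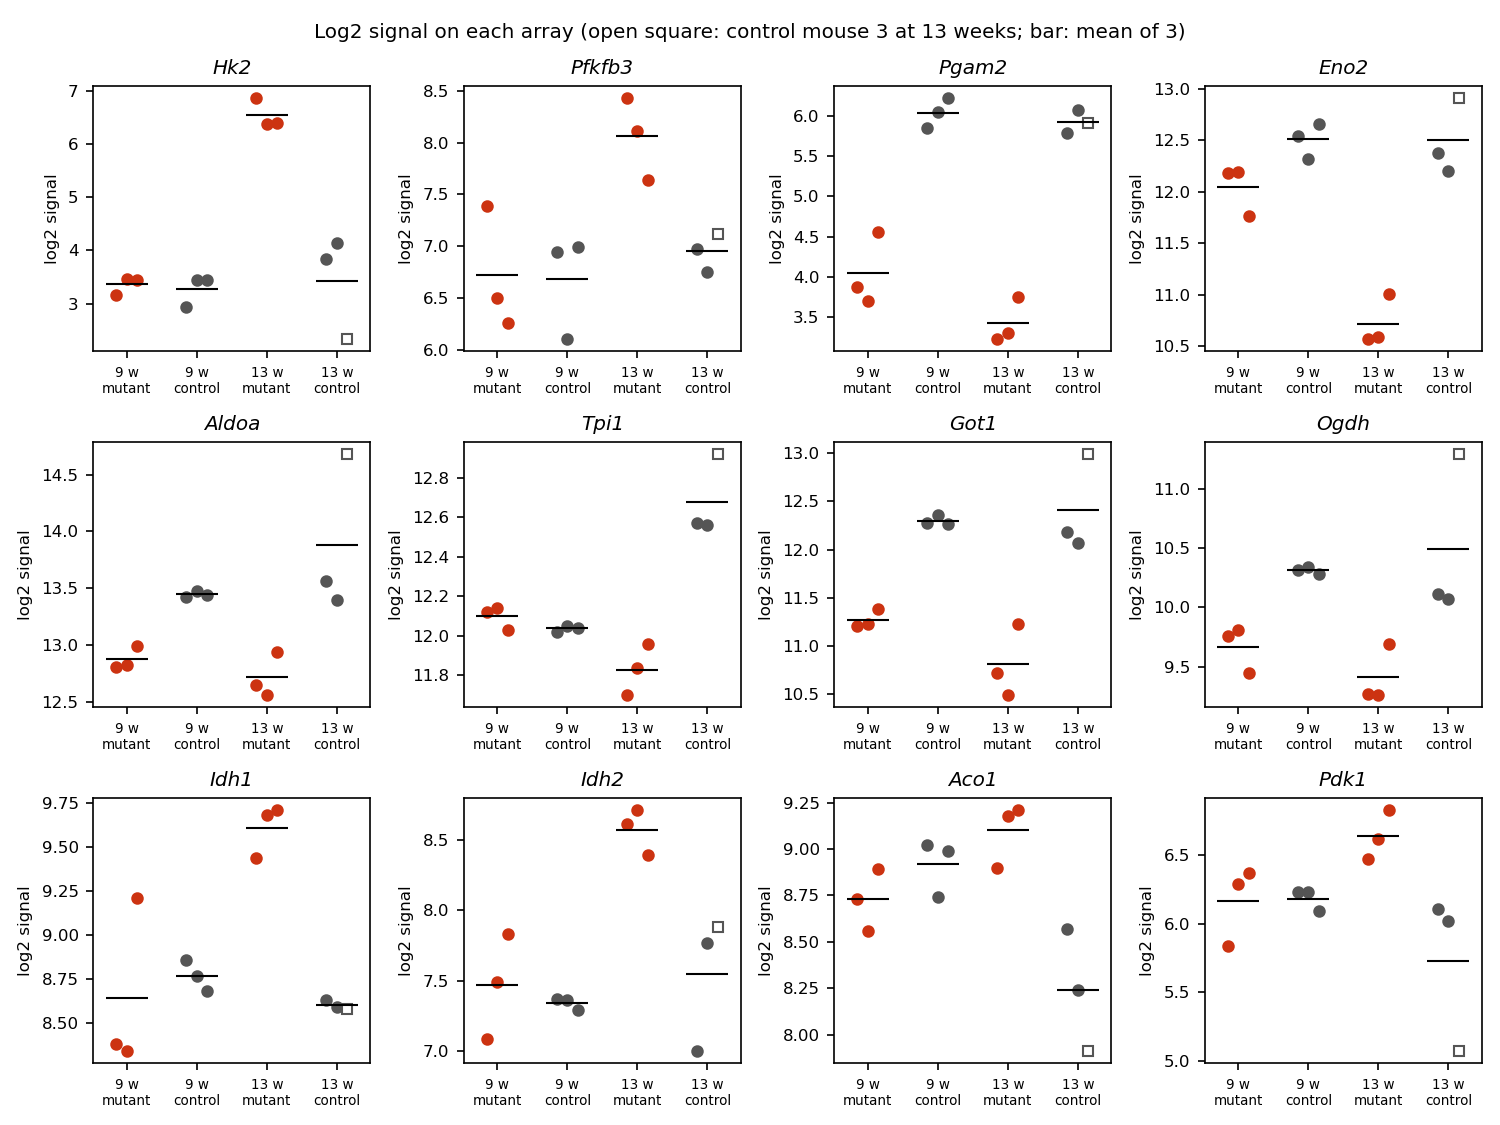
Log2 signal of 12 members on each array, with mutants in red and controls in grey at 9 and 13 weeks, a bar at each group mean and an open square for control mouse 3 at 13 weeks. The mutants at 13 weeks sit above all controls of their age for Hk2, Pfkfb3, Idh1, Idh2, Aco1 and Pdk1 and below them for the other 6, and the open square is the highest control for Aldoa, Tpi1, Eno2, Got1, Ogdh, Pfkfb3 and Idh2 and the lowest for Hk2, Pdk1, Aco1 and Idh1.

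Lactate dehydrogenase interconverts pyruvate and lactate, with Ldha coding for the muscle-type and Ldhb for the heart-type subunit. Ldha had 11.02, 10.85 and 10.95 in mutants at 9 weeks, against 11.32, 11.47 and 11.08 in controls, and 10.78, 10.65 and 11.06 in mutants at 13 weeks, against 11.39, 11.28 and 11.53 in controls. The groups were separate at both ages, and the fall of 0.57 ± 0.16 at 13 weeks passed with an adjusted p of 0.0117, but not without mutant mouse 2 (-0.48, adjusted p = 0.0567). Ldhb had 12.57, 12.65 and 12.69 in mutants at 9 weeks, against 12.95, 12.87 and 13.00 in controls, and 12.75, 12.80 and 12.53 in mutants at 13 weeks, against 12.96, 12.93 and 12.39 in controls. Only control mouse 3 made the groups overlap at 13 weeks, and the difference was -0.07 with it and -0.25 without it (adjusted p = 0.766 and 0.112). The other 3 probe sets of Ldhb differed by -0.36 to -0.59, and the 1 at -0.55 passed (adjusted p = 0.0442 over all probe sets). Ldha minus Ldhb within an array changed by -0.50 at 13 weeks, with an exact permutation p of 0.3.

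The pyruvate dehydrogenase complex is built from the products of Pdha1, Pdhb, Dlat and Dld, none of which passed at either age. At 13 weeks their differences were 0.08, -0.09, 0.00 and 0.30. Pdhb, which codes for a subunit of the first enzyme of the complex, had 10.56, 10.52 and 10.66 in mutants at 13 weeks, against 11.21, 11.20 and 9.61 in controls. The mutants lay below the first 2 controls and above the third, and without control mouse 3 the difference was -0.62 with an adjusted p of 0.00103.

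Pyruvate dehydrogenase kinases phosphorylate the complex and switch it off, and the 3 measured among the members went 3 ways. Pdk1 had 5.84, 6.29 and 6.37 in mutants at 9 weeks, against 6.23, 6.23 and 6.09 in controls, and 6.47, 6.62 and 6.83 in mutants at 13 weeks, against 6.11, 6.02 and 5.07 in controls. It overlapped at 9 weeks and was higher in all mutants at 13 weeks, by 0.91 ± 0.25 (adjusted p = 0.0124) and by 0.58 without control mouse 3 (adjusted p = 0.0176), and a second probe set differed by 1.56. Pdk3, an X-linked kinase gene, had 8.0, 8.09 and 8.16 in mutants at 9 weeks, against 8.34, 8.40 and 8.40 in controls, and 7.20, 7.46 and 7.62 in mutants at 13 weeks, against 7.98, 7.94 and 8.82 in controls. Mutants lay below controls at both ages, and the fall of 0.82 ± 0.22 at 13 weeks passed with an adjusted p of 0.0091 (without control mouse 3, -0.53 and 0.0078).

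Pdk2 had 8.27, 8.39 and 9.01 in mutants at 9 weeks, against 8.69, 8.71 and 8.64 in controls, and 8.28, 8.37 and 8.43 in mutants at 13 weeks, against 8.39, 8.37 and 8.23 in controls. The groups overlapped at both ages, and the difference at 13 weeks was 0.03 ± 0.18. Within arrays at 13 weeks, Pdk1 minus Pdk2 was larger in mutants by 0.88 and Pdk3 minus Pdk2 smaller (-0.85), each with an exact permutation p of 0.1.

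By the probe sets used, 3 of the 15 citrate cycle genes passed as higher at 13 weeks and 1 as lower. Of all genes 23.4% passed as higher and 21.9% as lower at that age. None of the 15 passed at 9 weeks. The 3 that rose are not the NAD-linked enzymes of the cycle: Idh1 and Idh2 code for the NADP-linked isocitrate dehydrogenases of the cytosol and the mitochondria, and Aco1 for the cytosolic aconitase, which also serves as an iron regulatory protein. Idh1 had 8.38, 8.34 and 9.21 in mutants at 9 weeks, against 8.86, 8.77 and 8.68 in controls, and 9.44, 9.68 and 9.71 in mutants at 13 weeks, against 8.63, 8.59 and 8.58 in controls. Mutant mouse 3 at 9 weeks lay above all controls of its age and the other 2 mutants below them, while at 13 weeks all mutants lay above. That mouse also had the highest thalamic (6.90) and microglia (9.39) marker means at 9 weeks, whose part was not tested. The difference at 13 weeks was 1.01 ± 0.21 (adjusted p = 0.00214).

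Idh2 had 7.09, 7.49 and 7.83 in mutants at 9 weeks, against 7.37, 7.36 and 7.29 in controls, and 8.61, 8.71 and 8.39 in mutants at 13 weeks, against 7.0, 7.77 and 7.88 in controls. It overlapped at 9 weeks and was separate at 13 weeks, with a difference of 1.02 ± 0.24 (adjusted p = 0.00474). That difference was 1.19 without control mouse 3. Aco1 had 8.73, 8.56 and 8.89 in mutants at 9 weeks, against 9.02, 8.74 and 8.99 in controls, and 8.90, 9.18 and 9.21 in mutants at 13 weeks, against 8.57, 8.24 and 7.91 in controls. Its levels in mutants at 13 weeks were close to those of the 9-week controls, and the 13-week controls were the low group. The difference at 13 weeks was 0.86 ± 0.19 (adjusted p = 0.00279), and 0.69 without control mouse 3. A second probe set of Aco1 differed by 0.33 with an adjusted p of 0.365. The higher astrocyte and microglia markers of these mice stand beside the 3 rises, and their part in them was not tested.

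Ogdh, which codes for the oxoglutarate dehydrogenase, was the citrate cycle gene that fell. It had 9.76, 9.81 and 9.45 in mutants at 9 weeks, against 10.31, 10.34 and 10.28 in controls, and 9.27, 9.26 and 9.69 in mutants at 13 weeks, against 10.11, 10.07 and 11.29 in controls. The mutants lay below every control at both ages. The fall at 13 weeks was 1.08 ± 0.28 (adjusted p = 0.00813), and the difference without control mouse 3 was -0.68 (adjusted p = 0.00497).

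The other 11 citrate cycle genes did not pass at 13 weeks by the probe sets used. Their differences ran from -0.43 for Mdh2 to 0.71 for Suclg2. Suclg2, a subunit gene of the GTP-forming succinyl-CoA ligase, had 7.84, 8.22 and 7.26 in mutants at 13 weeks, against 6.16, 6.54 and 8.5 in controls. Control mouse 3 was the highest of all 6, and without it the difference was 1.42 with an adjusted p of 0.00229. Fh1, the fumarase gene, also passed without that mouse (-0.31, adjusted p = 0.034). Cs, the citrate synthase gene, differed by 0.41 with it and by -0.01 without it.

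For Idh3a, a subunit gene of the NAD-linked isocitrate dehydrogenase, the probe set used differed by 0.15, but its other 2 probe sets differed by -1.16 and -1.15 and passed (adjusted p = 0.000471 and 0.000381 over all probe sets). Of the 24 members with several probe sets over the filter, 9 had probe sets that lay at least 0.5 apart in their difference at 13 weeks. For Tkt a second probe set differed by -0.01. For Mdh1 one differed by -0.57 and passed (adjusted p = 0.0161 over all probe sets), and another by 0.13. A second probe set of Idh3b differed by -0.62 and passed (adjusted p = 0.0192 over all probe sets), against -0.31 for the one used. With the mean of each gene's probe sets, 26 members passed at 13 weeks, 7 higher and 19 lower. Among all genes 3775 then passed, 1808 higher and 1967 lower.

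The aspartate aminotransferases carry reducing equivalents into mitochondria as part of the malate-aspartate shuttle, and both fell at 13 weeks. Got1, the cytosolic form, had 11.21, 11.23 and 11.38 in mutants at 9 weeks, against 12.28, 12.36 and 12.26 in controls, and 10.72, 10.49 and 11.23 in mutants at 13 weeks, against 12.18, 12.07 and 12.99 in controls. No mutant came near any control of its age. It fell by 1.03 ± 0.24 at 9 weeks (adjusted p = 0.0371, passing in 5 of the 12 fits that left out 1 mouse, with up to 0.124 in the others) and by 1.60 ± 0.24 at 13 weeks (adjusted p = 0.000248). The Got1 difference at 13 weeks was -1.31 without control mouse 3 (adjusted p = 0.00021). Got2, the mitochondrial form, fell by 0.71 ± 0.15 at 13 weeks (adjusted p = 0.00246). Its difference was -0.53 ± 0.15 at 9 weeks (adjusted p = 0.0658).

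In the pentose phosphate pathway Pgd and Tkt passed as higher at 13 weeks, and the transaldolase gene Taldo1 overlapped (0.04 ± 0.13). Pgd, whose enzyme makes NADPH in the oxidative arm, had 9.74, 9.59 and 9.27 in mutants at 13 weeks, against 8.72, 9.03 and 8.64 in controls. All mutants lay above all controls, and the difference was 0.74 ± 0.18 (adjusted p = 0.00537). Its other probe sets differed by 0.54, 0.66 and 0.35 (adjusted p = 0.109, 0.00385 and 0.0901 over all probe sets), and the one at 0.54 is the one without the suffix x. Tkt, the transketolase gene of the non-oxidative arm, had 12.32, 12.40 and 12.57 in mutants at 9 weeks, against 12.04, 11.84 and 11.41 in controls, and 12.78, 12.88 and 12.62 in mutants at 13 weeks, against 12.35, 12.32 and 11.51 in controls. Mutants lay above controls at both ages, with differences of 0.67 ± 0.23 at 9 weeks (adjusted p = 0.125) and 0.70 ± 0.23 at 13 weeks (adjusted p = 0.0289). The call at 13 weeks was lost without control mouse 3 (0.43, adjusted p = 0.0715), and also without mutant mouse 1 or mutant mouse 2, with a highest adjusted p of 0.0931.

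Seen by pathway, the median difference at 13 weeks was -0.70 over 13 glycolysis genes, -1.16 over the 2 aminotransferases, -0.32 over the 2 lactate dehydrogenases, 0.03 over 7 pyruvate dehydrogenase genes, -0.07 over 15 citrate cycle genes and 0.70 over 3 pentose phosphate genes. At 9 weeks these medians were -0.35, -0.78, -0.33, -0.22, -0.10 and 0.29. The order of the pathways was similar at the 2 ages, with aminotransferases lowest and pentose phosphate genes highest. Without control mouse 3 the medians at 13 weeks were -0.52, -1.02, -0.38, -0.02, -0.10 and 0.43.

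**Figure D3:**
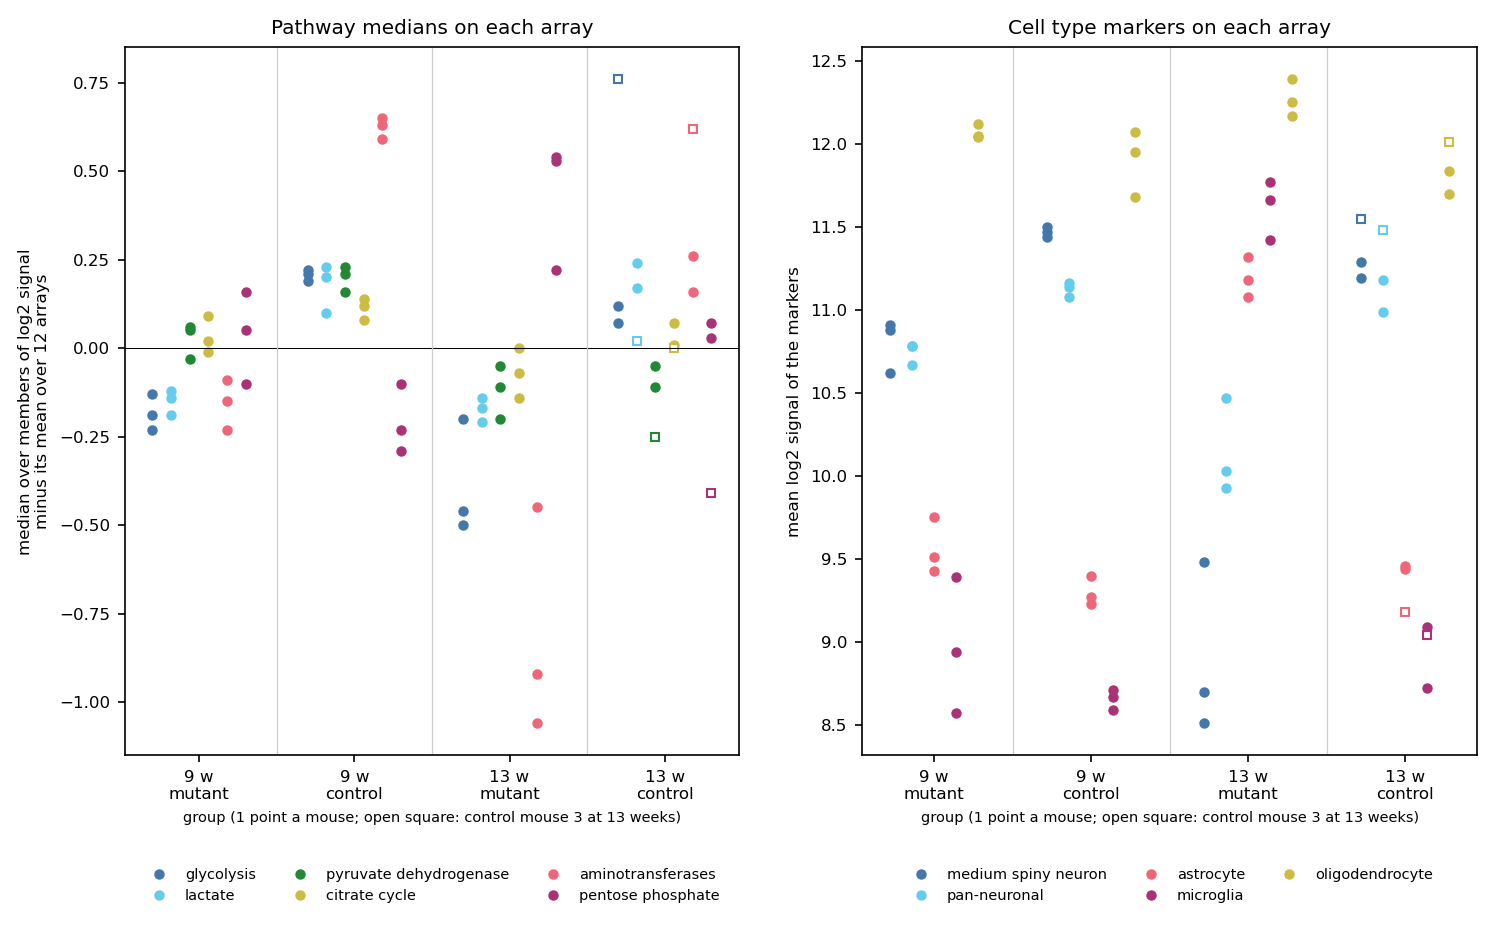
Left, the median over each pathway's members of the log2 signal minus the gene's mean over the 12 arrays; right, the mean log2 signal of 5 marker lists. Each point is 1 mouse, mutants left of controls at each age, and the open square is control mouse 3 at 13 weeks. Glycolysis medians lie at -0.50 to -0.20 in mutants at 13 weeks and at 0.07 to 0.76 in controls, and medium spiny neuron markers at 8.51 to 9.48 and 11.19 to 11.55.

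Leaving out control mouse 3 at 13 weeks changed few calls of the genotype comparison at that age. Of the 22 members that passed at 13 weeks, 21 also passed without it, Tkt was lost, and Pdhb, Suclg2 and Fh1 were added, where 47.9% of all genes passed. In a fit with a term for sex 24 members passed, 21 of them among the 22, and 3841 of all genes did. Pfkfb3 was lost there, and Hk1, Cs and Mdh2 were added. With that term and without control mouse 3, 17 members passed, 7 higher and 10 lower. Among all genes 2894 then passed, 1528 higher and 1366 lower, against 3744 with all arrays and no such term. Pfkl, Pfkm, Pgam1, Pfkfb3, Ldha, Pdk3 and Aco1 were no longer among the members that passed. At 13 weeks that last fit has no female control, so sex and genotype are separated there only through the mice at 9 weeks.

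**Figure D4:**
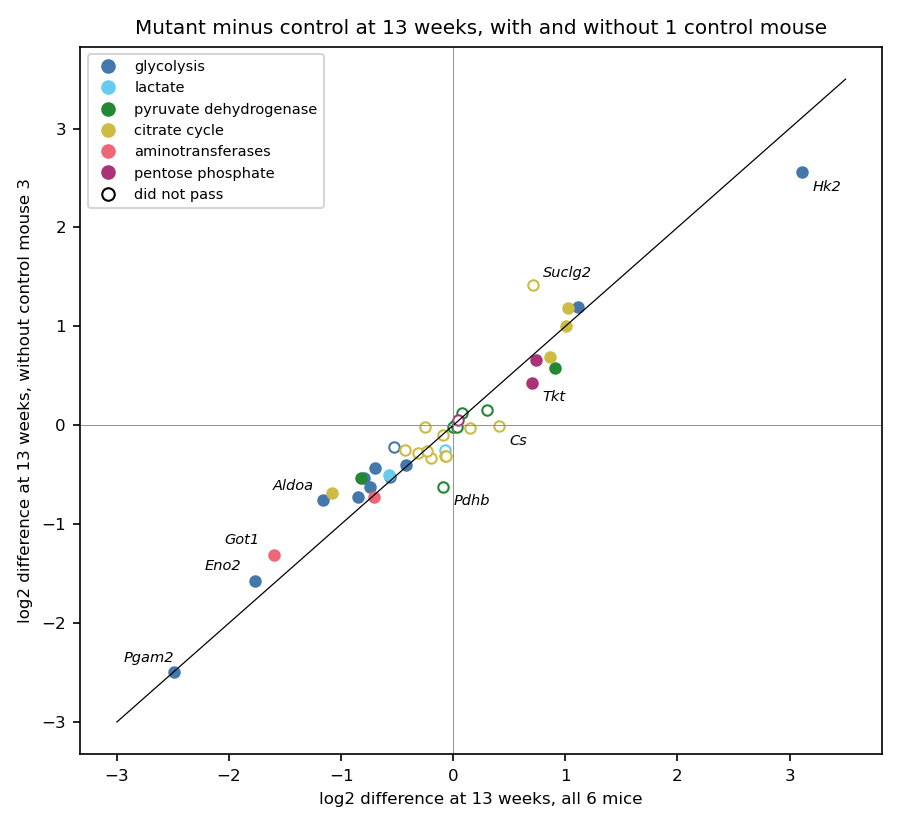
Difference between mutants and controls at 13 weeks for the 42 members, in log2 units, with all 6 mice on the horizontal axis and without control mouse 3 on the vertical axis; the diagonal marks equal values and filled points passed with all mice. Most falls move towards 0 without that mouse (Aldoa is at -1.16 with it and -0.76 without it), Pgam2 stays on the diagonal, and Suclg2 and Pdhb move away from 0.

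Whether the effect of genotype differed between the ages was tested as an interaction, the difference at 13 weeks minus that at 9 weeks. It passed for 5 of the 42 members, 3 higher and 2 lower, against 18.4% of all genes (12.1% higher and 6.37% lower). The 3 were Hk2, which entered the test only through the mutants at 13 weeks, Aco1 and Idh1, and the 2 were Tpi1 and Eno2. For Pgam2, Pfkl and Got1, which passed at both ages, the interaction did not pass (-0.50, -0.05 and -0.57, adjusted p = 0.311, 0.901 and 0.282). Averaged over both ages, 19 members passed, 5 higher and 14 lower, against 44.4% of all genes (22.4% higher and 22% lower), and Pgam2 had the smallest adjusted p (-2.24 ± 0.16, 1.39e-06).

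From 9 to 13 weeks no member passed in controls by limma, 6 had an unadjusted p under 0.05, and 0.145% of all genes passed. In mutants 8 members passed, 5 higher and 3 lower, against 32.7% of all genes (16.1% higher and 16.6% lower). With each array centred on its median, 1168 genes passed as higher and 1949 as lower, against 1330 and 1370 with the values as deposited. Without control mouse 3 at 13 weeks 18 members passed, 8 higher and 10 lower. Of all 8253 genes 1702 then passed as higher and 2132 as lower. Without mutant mouse 3 at 13 weeks 13 members passed. With all arrays, the members higher at 13 weeks were Hk2 (3.19 ± 0.38), Suclg2 (1.49), Pfkfb3 (1.34), Idh2 (1.10) and Idh1 (0.97). Those lower were Eno2 (-1.32 ± 0.21), Got2 (-0.85) and Pdk3 (-0.66). The size for Hk2 is uncertain because no mutant array at 9 weeks was over the filter percentile. Its call adds little, since it entered the test only through the mutants at 13 weeks. Suclg2 passed in 6 and Pdk3 in 4 of the 12 fits that left out 1 mouse. All 3 mutants at 13 weeks were female, against 1 at 9 weeks, so sex is partly mixed with age here. In the fit with a term for sex Suclg2 did not pass (1.15, adjusted p = 0.142), the others did, and Pkm, Pdk1 and Tkt were added. Got2 also had a difference of -0.67 ± 0.15 in controls, with an adjusted p of 0.104.

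Other genes of the same metabolism were read at 13 weeks from 6 lists, beside the 23.4% of all genes that passed as higher and the 21.9% that passed as lower. The median differences of the lists for transport, glycogen and pyruvate use were -0.16, 0.55 and 0.18, against 0 over all genes tested. Of 7 transporter genes tested, 2 passed as higher, Slc16a1 (2.32 ± 0.27), a lactate and pyruvate transporter, and Slc2a1 (1.13 ± 0.20), the glucose transporter of endothelium and astrocytes. Slc2a3, the neuronal glucose transporter, passed as lower (-1.68 ± 0.24). None of the 7 passed at 9 weeks, where Slc2a3 had -0.85 with an adjusted p of 0.0655. Among 14 glycogen genes 6 passed as higher and 2 as lower, with the phosphorylase kinase subunit genes Phka1 (1.60 ± 0.26) and Phkb (1.40 ± 0.38) and the UDP-glucose synthesis gene Ugp2 (0.95 ± 0.20) higher, and the lysosomal glucosidase gene Gaa lower (-0.70 ± 0.13). Phkb differed by 0.81 without control mouse 3.

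Of 19 other pyruvate and citrate cycle genes 6 passed as higher and 1 as lower. Pdk4, a further pyruvate dehydrogenase kinase, rose by 2.35 ± 0.28 (adjusted p = 4.79e-05), Me1, the cytosolic malic enzyme that makes NADPH, by 1.56 ± 0.27, and Dbt, of the branched-chain keto acid dehydrogenase, by 0.84 ± 0.15. Me2, a mitochondrial malic enzyme, fell by 1.34 ± 0.29. Among 8 other glycolysis and gluconeogenesis genes Pgm2, a phosphoglucomutase, passed as higher (1.78 ± 0.22, with controls near the filter percentile) and Pcx, the pyruvate carboxylase gene, as lower (-0.83 ± 0.21), while Pgm1 and Pck2 had -0.28 and 0.27 and did not pass (median of the list 0.19). Among 7 other pentose phosphate genes 2 passed as lower, Prps1 (-0.94 ± 0.14) and Prpsap2 (-0.34 ± 0.13), whose products belong to phosphoribosyl pyrophosphate synthesis, while Pgls (0.51) and Prpsap1 (0.48) did not pass (median of the list 0.47).

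Of 12 hypoxia-inducible genes outside glycolysis, 3 passed as higher and 3 as lower at 13 weeks, with a median of -0.21. Hif1a (1.85 ± 0.43, and 1.22 without control mouse 3) and Ndrg1 (1.08 ± 0.17) were higher. The 3 lower genes were Car12, a carbonic anhydrase gene (-2.19 ± 0.34), Bnip3 (-0.80 ± 0.24) and Egln1 (-0.53 ± 0.17). The third higher gene, the collagen lysyl hydroxylase gene Plod2, averaged 4.94 in mutants and 3.05 in controls at 13 weeks. Its means in the other 3 groups lay under the filter percentile, so it entered the test only through the group where it was high and had to differ. Ndrg1 was the 1 gene of the 67 tested in these 6 lists that passed at 9 weeks (0.75, adjusted p = 0.031). These lists share the mice, and the marker shifts, of the members.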

How the data were processed

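Total RNA of each mouse was hybridised to an Affymetrix mouse array, per the labels' protocols. The deposited log2 values were made by the authors with GCRMA, per the submitters' processing notes. Its version is not given in the sources used here. The values were used as deposited. After 64 control probe sets, 691 with several symbols and 1555 with none were left out of 22690, each gene was read from 1 probe set. A gene was kept where it exceeded its array's 40th percentile on at least 3 arrays. All 12 arrays were fitted in R 4.3.3 with limma 3.58.1 (lmFit, eBayes; 4 group coefficients, 8 residual degrees of freedom). Tests were two-sided, with Benjamini-Hochberg adjustment over 8253 genes. Paralogue pairs were compared by two-sided exact permutation tests of within-array differences, 14 in all and unadjusted.

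The members and lists were chosen with earlier results of these data known. Values on each array are given for members that passed at 9 weeks or in the interaction, for the 12 largest differences that passed at 13 weeks and for the paralogue pairs. Pdhb, Suclg2, Pgd and Tkt were added with their values seen. From each list of other genes up to 4 with the smallest p at 13 weeks, and any that passed at 9 weeks, are named. Bnip3 and Egln1 were added with their values seen, so that every call of the hypoxia-inducible list at 13 weeks is given. Sex was read from Xist and Eif2s3y. Same-numbered mice correlated at -0.07 to 0.18 in their deviations from group means, so numbers were not taken as pairs. The procedure was tested on simulated data. Alternatives covered scaling, filters, probe sets, array weights, the prior, samples in the fit, sex, the replicate block, thresholds and left-out arrays.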

Additional observations from a re-analysis of the deposited data

Results flagged for a closer look

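For 5 members the effect of genotype differed between 9 and 13 weeks by the interaction test of limma, the difference at 13 weeks minus that at 9 weeks. It was 3.03 ± 0.53 for Hk2 (adjusted p = 0.00214), -0.91 ± 0.20 for Tpi1 (0.00854), -1.31 ± 0.30 for Eno2 (0.0106), 1.05 ± 0.26 for Aco1 (0.0165) and 1.14 ± 0.30 for Idh1 (0.0197). For Hk2, Aco1 and Idh1 the mutants were relatively higher at 13 weeks, and for Tpi1 and Eno2 relatively lower. The size for Hk2 is uncertain because no array at 9 weeks was over the filter percentile. Hk2 also entered the test only through the mutants at 13 weeks, so its call adds little. The first 4 passed in all 12 fits that left out 1 mouse and Idh1 in 8, missing it without control mouse 1 at 9 weeks (adjusted p = 0.0516), mutant mouse 1 at 9 weeks (1.01, 0.0515), mutant mouse 2 at 9 weeks (0.98, 0.0558) or mutant mouse 2 at 13 weeks (1.10, 0.053). Aco1 missed it with the mean of its probe sets (0.83, adjusted p = 0.0614) and with a term for sex and without control mouse 3 at 13 weeks (0.82, 0.078).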

How the results depend on the processing

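No call reversed under any alternative run. Per result and alternative, 521 of 543 values of the comparison at 13 weeks kept their direction and call, 17 lost the call and 5 gained one, against 494, 23 and 26 of 543 at 9 weeks. Members passing at 9 weeks (3 with all settings as described) numbered 5 without the filter, 24 with array weights (whose estimate did not converge), 8 with only the groups compared, 1 without both arrays of high thalamic markers, 12 without mutant mouse 3 at 9 weeks and control mouse 3 at 13 weeks, 9 with a term for sex and without that control, 1 at a threshold of 0.01 and 5 at 0.1. All genes passing at 9 weeks (413) numbered 3832 with array weights, 1053 with only the groups compared, 194 without the thalamic pair, 1412 without mutant mouse 3 and control mouse 3, 1293 with sex and without control mouse 3, 55 at 0.01 and 827 at 0.1. Array weights gave 35 members over both ages (19), 15 in the interaction (5), 14 for age in controls (0) and 29 for age in mutants (8), and among all genes 5701 (3662), 4302 (1522), 1926 (12) and 5752 (2700). Without mutant mouse 3 at 9 weeks and control mouse 3 at 13 weeks, both chosen after seeing the data, these members numbered 8 in the interaction, 2 for age in controls and 18 for age in mutants, and among all genes 2324 in the interaction and 141 for age in controls. Thresholds of 0.01 and 0.1 gave 2 members in the interaction and 14 for age in mutants, and 0.01 gave 2410, 764 and 1714 genes over both ages, in the interaction and for age in mutants. For age in controls no filter gave 1 member and 59 genes. The cause of these moves was not tested.

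Centring each array on its median moved the median of all genes at 13 weeks by -0.13 and changed the sign of 4 members that did not pass. It split calls there into 1616 higher and 2226 lower (1933 and 1811 as deposited), and those for age in mutants into 1168 and 1949 (1330 and 1370). Pathway medians moved as follows. For pyruvate dehydrogenase genes at 9 weeks (-0.22) the median was -0.14 with the mean of probe sets and -0.34 without the thalamic pair or without mutant mouse 3 and control mouse 3; at 13 weeks (0.03) it was -0.10 with centring, 0.17 with sex and 0.15 with sex and without control mouse 3. For citrate cycle genes at 13 weeks (-0.07) it was -0.20 with centring, -0.14 with the mean of probe sets, 0.05 with sex or without the thalamic pair and 0.01 with sex and without control mouse 3. For lactate dehydrogenases (-0.32) it was -0.45 and -0.48 with centring and the mean of probe sets, for glycolysis (-0.70) it was -0.47 with sex and without control mouse 3, and for pentose phosphate genes (0.70) it was 0.35 with the mean of probe sets, 0.50 with array weights and 0.43 without mutant mouse 3 and control mouse 3.

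With 1 mouse left out at a time, members passing numbered 1 to 10 at 9 weeks, 19 to 24 at 13 weeks, 4 to 6 in the interaction, 6 to 18 for age in mutants and 0 for age in controls. The medians ran from -0.34 to -0.13 for pyruvate dehydrogenase genes at 9 weeks, from -0.10 to 0.05 for citrate cycle genes at 13 weeks and from 0.43 to 0.83 for pentose phosphate genes at 13 weeks. With the replicate block, 3 members passed at 9 weeks, 22 at 13 weeks, 21 over both ages and 10 for age in mutants. The members added included Pfkfb3 over both ages and Pfkl and Pgam2 for age in mutants. The pair Eno1 minus Eno2 was not run because Eno1 was not measured here. Signals near the filter percentile limit what the sizes for Hk2 and Pgam2 show.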

Other observations

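Gapdh had no probe set with its symbol alone, but the array carries control probe sets for it. The 3′ control probe set had 13.90 to 13.96 in mutants at 9 weeks, against 14.28 to 14.32 in controls, and 13.75 to 13.93 in mutants at 13 weeks, against 14.13 to 14.42 in controls. Mutants lay below controls at both ages, without a test. The 3′ minus 5′ difference of the Gapdh control probe sets, a sign of RNA quality, ran from -0.20 to 0 over the 12 arrays. For the actin control probe sets it ran from 0.82 to 1.96, and control mouse 3 at 13 weeks was the lowest.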
